A study of Homo sapiens with 6 samples.

Results

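The keratin, desmosome, adherens junction and tight junction genes described here are a list of 35 genes, given by symbol. Of them, 33 had a transcript in the files that could be matched to a gene, out of 35810 matched genes in all, and each of the 33 had enough reads to be tested. KRT20 and KRT23 had no matched transcript and were not analysed here. Polyadenylated RNA was sequenced from DLD-1 cells, a human colorectal adenocarcinoma line, of the genotype SPT5-AID, so that cells of both groups carry an auxin-inducible degron on the elongation factor SPT5. The cells received a lentiviral shRNA against ARMC5, an adaptor protein of the CUL3 ubiquitin ligase (shARMC5, n = 3), or a nontargeting shRNA (shNT, n = 3), and the study used these libraries to measure ARMC5 mRNA and the expression of other genes after the knockdown. Infected cells were selected with puromycin, no auxin is named in the labels, and which of the ARMC5 shRNA constructs went into these cells is not given in the sources used here.

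Keratins 8, 18, 19 and their relatives form the intermediate filaments of simple epithelia, in which a type II keratin such as KRT8 pairs with a type I keratin such as KRT18 or KRT19. The filaments end at desmosomes, where the desmosomal cadherins DSG2 and DSC2 bind the neighbouring cell and the plaque proteins plakoglobin (JUP), the plakophilins and desmoplakin (DSP) hold the filaments. Adherens junctions link E-cadherin (CDH1) through catenins to actin, and tight junctions, built from claudins, occludin and the scaffold proteins of the ZO family, seal the space between cells.

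Reads per library lay between 26201112 and 40866478, and replicates of a group differed by more than sampling noise. ARMC5 itself, on chromosome 16 of GRCh38 from 31458080 to 31467166, had 10.8, 12.0 and 12.9 CPM (reads per 1000000 after TMM normalization, which sets the libraries on a common scale) in shARMC5 replicates 1, 2 and 3 and 23.0, 25.9 and 26.7 CPM in shNT replicates 1, 2 and 3. The log2 fold change of ARMC5 was -1.09 (SE 0.08, adjusted P = 5.32e-07). Here and below, the log2 fold change compares shARMC5 with shNT, the SE is its standard error, and the adjusted P value comes from edgeR's quasi-likelihood F test with Benjamini-Hochberg adjustment over all 13737 tested genes. Genes are called higher or lower at an adjusted P value below 0.1, the threshold of the study, which tested with DESeq2 and not edgeR. Since the RNA is from bulk culture, fewer cells with a transcript and less of it per cell cannot be told apart.

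Colon epithelial markers were measured to check the labelled cell type. EPCAM, CDH1, KRT8, KRT18, KRT19 and CDX2 were abundant in every library. All of these except CDX2 are among the genes described here, so their levels are no separate check. CDX1 was at 0 in all 6 libraries. LGALS4 lay between 0.234 and 1.07 TPM (a share of all transcripts of the library that accounts for transcript length). Of the 11 listed markers 10 were matched, and 8 of these reached 1 TPM. The summed level of these markers was 8560 to 8860 TPM in shARMC5 and 7570 to 8090 TPM in shNT libraries, a sum that KRT8 and KRT18 dominate. VIL1, which encodes the microvillar actin-bundling protein villin, was at 4.54 CPM in shARMC5 and 11.1 CPM in shNT cells on average (log2 fold change -1.30, adjusted P = 2.77e-06). CDH17, the intestinal cadherin, was also lower (-0.27, adjusted P = 0.00154), and CDX2, an intestinal transcription factor, was not called (0.01, adjusted P = 0.905). Markers of other cell types were near 0. The 5 markers of stratified squamous epithelium summed to 0.597 to 0.807 TPM in shARMC5 and 0.585 to 1.94 TPM in shNT libraries, the 6 of fibroblasts to 0.518 to 1.01 and 0.637 to 1.31 TPM, the 5 of leukocytes to 0.0115 to 1.23 and 0 to 0.878 TPM, and the 4 of endothelium to 0.171 to 0.368 and 0.136 to 0.231 TPM.

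The levels of the 33 genes spanned from keratins among the most abundant transcripts of the cell to a plakophilin at the edge of detection. In shNT cells KRT8 was at 3209 ± 131 TPM (SD, n = 3), rank 29 among all tested genes, and KRT18 at 2614 ± 92.6 TPM, rank 41. EPCAM, an epithelial adhesion protein that binds claudins, followed at 1021 ± 35.5 TPM and KRT19 at 717 ± 18.6 TPM. These levels and the next, CLDN7 at 248 ± 12.2 TPM and CTNNB1 at 207 ± 13.6 TPM, did not overlap between neighbours in the order. JUP at 177.4 TPM and CLDN4 at 177.2 TPM did overlap, as did CTNND1 with KRT10 and KRT10 with PKP4, between 76.6 and 90.8 TPM. Below 20 TPM lay CLDN12, EVPL, CLDN3, TJP3, OCLN, CGN, MARVELD2 and KRT7. DSC2 at 4.42 ± 0.378 TPM and CLDN1 at 4.31 ± 0.176 TPM did not differ beyond their spread, and PKP1 came last at 0.179 ± 0.0456 TPM.

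**Figure D1:**
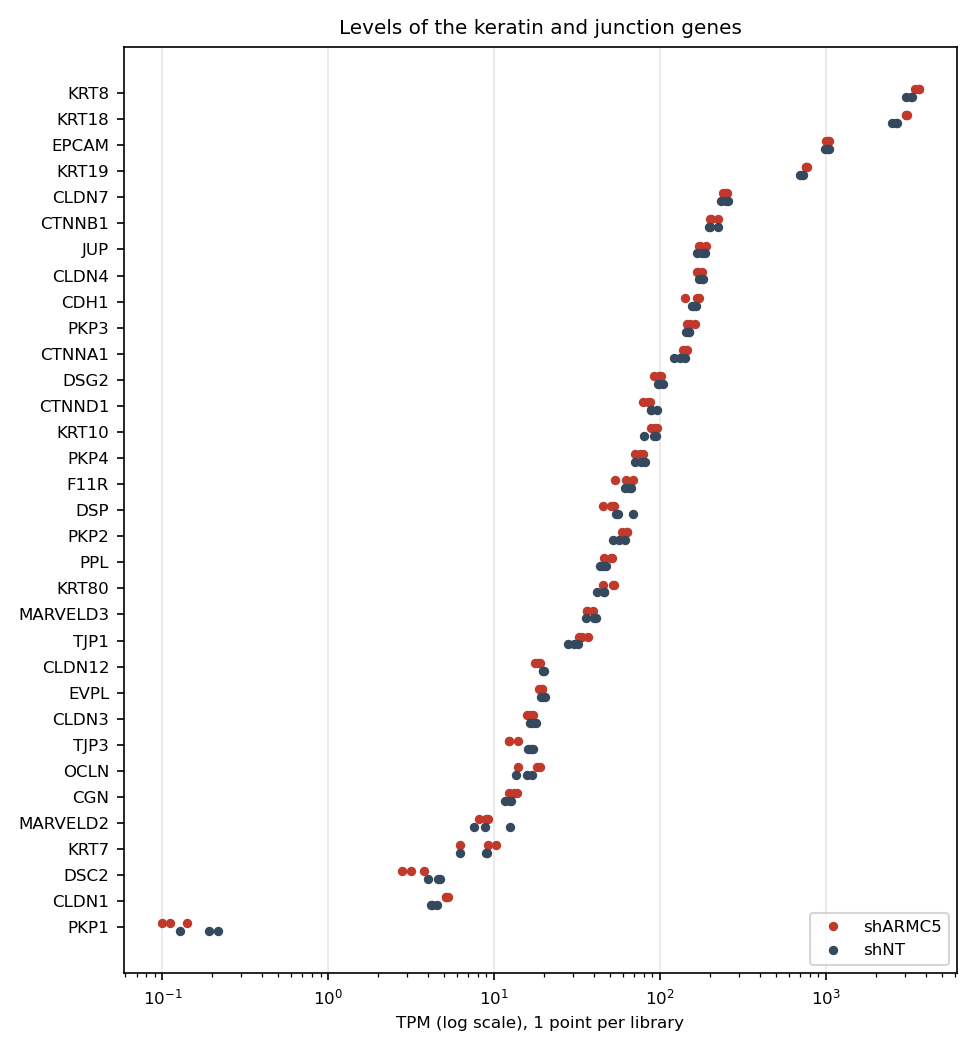
Level of each of the 33 genes in TPM on a log axis, 1 point per library, shARMC5 in red above shNT in dark blue, ordered by the mean of shNT. KRT8 and KRT18 lie above 2500 TPM and PKP1 near 0.1 TPM, and for most genes the points of both groups lie close together.

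Of the 33 tested genes, 9 were called higher in shARMC5 cells (27.3%, against 4.44% of all tested genes) and 3 lower (9.09%, against 3.30%). In all, 12 were called (36.4%), against 7.75% of all genes. The list was drawn up with earlier results of these libraries known, so its share of calls is a description and not a comparison with a blindly chosen list. Calls were also more common among all genes at the levels where these genes lie. From 100 to 1000 CPM, 15.4% of 2297 genes were called and 7 of the 17 listed genes in that range; from 10 to 100 CPM, 8.43% of 6950 genes and 3 of 12; at 1000 CPM or more, 12.9% of 85 genes and both KRT8 and KRT18; under 10 CPM, 2.57% of 4405 genes and neither KRT7 nor PKP1. The median log2 fold change of the 33 genes was 0.03, with 20 above 0 and 13 below, beside a median of -0.0014 over all tested genes. Without shARMC5 replicate 1 the median of the 33 was 0.0072. Without shNT replicate 1, 5 of the 33 were called higher and 0 lower, and 536 of all genes were called. In 13 of the 33 (39.4%) the 3 libraries of one group all lay above those of the other, against 23.4% of all genes. These 13 were 11 of the called genes, all except KRT80, and DSP and CLDN12. The separation was judged in CPM, and in TPM the groups of PKP2, PPL, CTNNA1 and CTNNB1 overlapped. Over all genes such separation was also more common at higher levels. It reached 24.9% of genes from 10 to 100 CPM, 32.7% from 100 to 1000 CPM and 34.1% at 1000 CPM or more. The listed genes had 4 of 12, 7 of 17 and 2 of 2 in those ranges. The changes were small: the largest rise among the called genes, that of CLDN1, was 22% of the shNT mean. The largest fall among them was that of DSC2, to 0.76 of the shNT mean.

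By structure, the keratins had 4 called higher and none lower among 6, the desmosome and plaque genes 2 higher and 1 lower among 10, the adherens junction genes with EPCAM 2 higher and 1 lower among 5, and the tight junction genes 1 higher and 1 lower among 12. The median log2 fold changes of these 4 groups were 0.17, 0.01, 0.03 and -0.03 in that order. Whether the groups differ from one another was not tested. With an offset for average transcript length in edgeR, KRT8 and KRT18 alone of these genes were called, and 234 of all genes, although others kept similar log2 fold changes, such as KRT19 (0.10), PPL (0.13), PKP2 (0.13), CLDN1 (0.29) and DSC2 (-0.42). DESeq2 with the same offset called 6 of the listed genes higher and 2 lower, of which 6 were among the 12 reported calls (KRT8, KRT18, KRT19, KRT80, PPL and TJP3) and TJP1 and DSP were not.

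**Figure D2:**
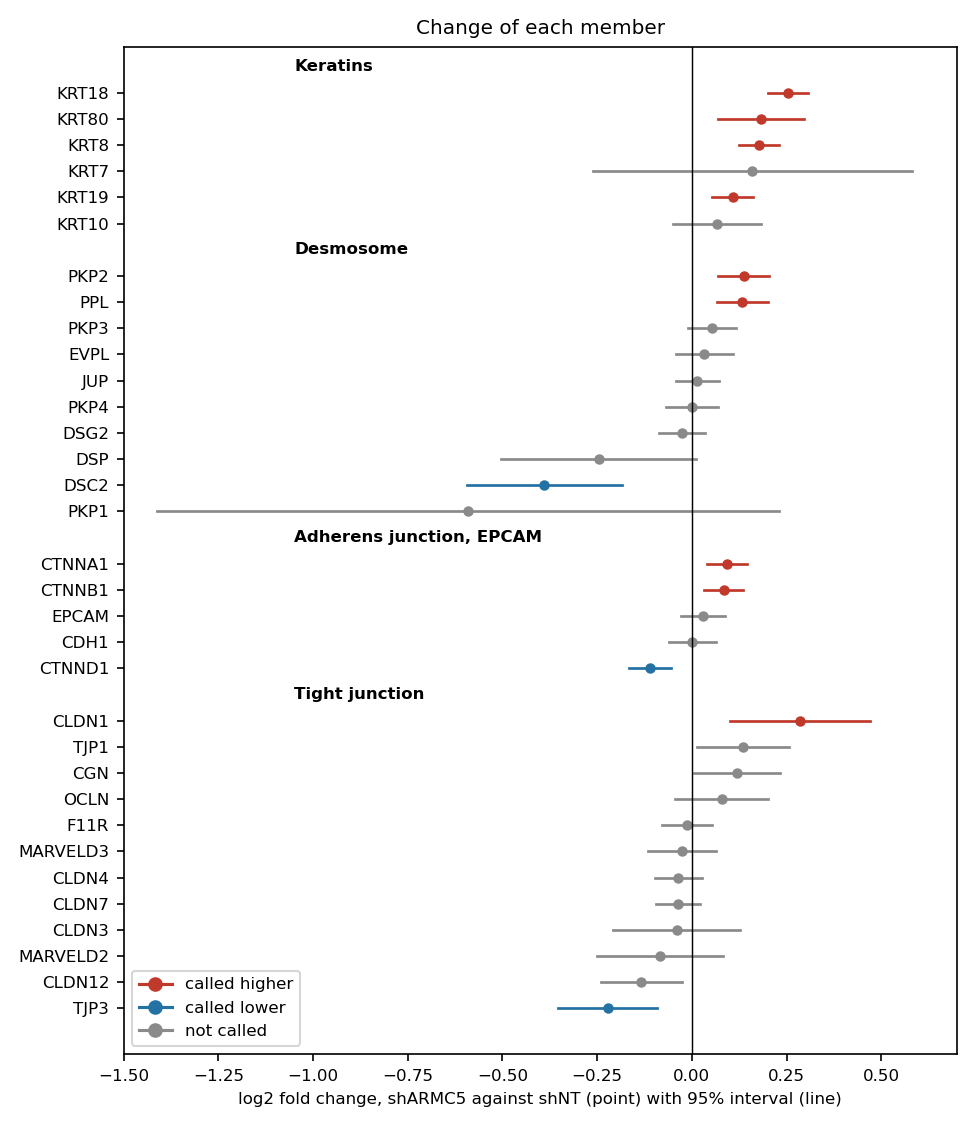
Log2 fold change of shARMC5 against shNT for each of the 33 genes (point) with its 95% interval (line), grouped by structure. Red marks the 9 genes called higher, blue the 3 called lower and grey the others, and the 6 keratins all lie to the right of 0.

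KRT18, KRT8 and KRT19, the most abundant keratins of these cells, were higher in shARMC5 cells, and KRT18 had the largest log2 fold change of the 3. KRT18 (chromosome 12, 52948871 to 52952906, plus strand), the type I partner of KRT8, had 2781, 2819 and 2855 CPM in shARMC5 replicates 1, 2 and 3 and 2333, 2425 and 2332 CPM in the shNT replicates. The groups were separate, and the log2 fold change was 0.25 (SE 0.03, adjusted P = 1.2e-05), a rise of 19.2%. KRT18 is among the genes that the study labelled in its plot of these libraries, so its choice was not independent of them. KRT8 (chromosome 12, 52897187 to 52949954, minus strand) had 4469, 4472 and 4375 CPM against 3887, 4041 and 3850 CPM. Its groups were separate too, with a log2 fold change of 0.18 (SE 0.02, adjusted P = 0.000412) and a rise of 13.1%. KRT19, a type I keratin that lacks most of the tail domain, had 669, 662 and 670 CPM against 608, 632 and 617 CPM (log2 fold change 0.11, SE 0.03, adjusted P = 0.0228). These 3 genes together took 0.784 to 0.791% of the reads of shARMC5 libraries and 0.678 to 0.711% of those of shNT libraries.

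The remaining keratins were less abundant. KRT80, a type II keratin found at desmosomes and in differentiating epithelia, had 141, 142 and 124 CPM against 119, 124 and 116 CPM (log2 fold change 0.18, SE 0.05, adjusted P = 0.0804). Its shARMC5 replicate 3 lay at the level of shNT replicate 2. The call was lost without shARMC5 replicate 1 (adjusted P = 0.169), shNT replicate 1 (0.238), shARMC5 replicate 2 (0.225) or shNT replicate 3 (0.212), each left out alone. With the replicate number as a further term of the edgeR fit, the adjusted P value of KRT80 was 0.00148. The labels do not say whether same-numbered libraries form pairs. KRT10, a type I keratin best known from suprabasal epidermis, lay between 35.4 and 40.7 CPM in all 6 libraries and was not called (log2 fold change 0.07, adjusted P = 0.582). KRT10-AS1 overlaps it on the opposite strand with a mean of 459 reads per library beside 1208 for KRT10, and the labels name no setting for strand. KRT7 was covered by only 63 to 155 reads per library, and its log2 fold change was 0.16 with a 95% interval from -0.26 to 0.58. It was 0.36 without shARMC5 replicate 3 and -0.0066 without shARMC5 replicate 1. No transcript of KRT7 annotated as protein-coding passed the filter. Those that did were KRT7-212, without a defined coding sequence, and KRT7-208, a retained intron. They held 64.7 and 8.16% of the TPM of KRT7 in shNT cells.

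**Figure D3:**
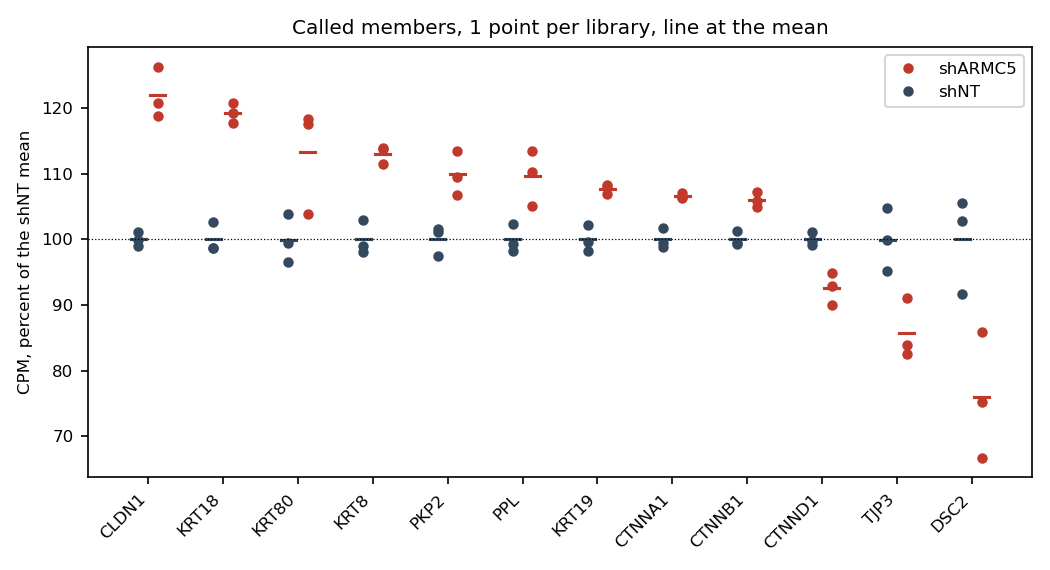
The 12 called genes in each library as a percentage of the shNT mean of that gene (CPM), 1 point per library and a line at each group's mean, shNT in dark blue and shARMC5 in red. KRT80 is the one gene in which a shARMC5 library falls within the shNT range, and DSC2 shows the widest spread.

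KRT8 and KRT18 are neighbours, and the balance between the partners was compared within each library. The transcript that carried most of KRT8's TPM, KRT8-201, starts at 52906618 on the minus strand and KRT18-201 starts at 52949118 on the plus strand, 42500 bases away, so that both are read away from each other. Other annotated KRT8 transcripts start close to KRT18 and overlap it on the opposite strand, but 95.1 to 95.8% of KRT8's TPM was in transcripts that end before KRT18. The ratio of KRT18 to KRT8, in TPM, was 0.839, 0.847 and 0.883 in shARMC5 replicates 1, 2 and 3 and 0.811, 0.813 and 0.820 in the shNT replicates. Each shARMC5 library was above each shNT library, with a mean difference of 0.07 on the log2 scale, for which P = 0.1 in a two-sided exact permutation test, the smallest value that 3 libraries against 3 allow. The difference was 0.08 when CPM was used and 0.07 with pseudogenes added. The genome holds many processed copies of both genes. The 51 annotated KRT8 pseudogenes in the files took reads equal to 1.09 to 1.17% of those of gene and pseudogenes together, and the 65 of KRT18 0.079 to 0.14%. With these reads added, the log2 fold changes stayed at 0.18 for KRT8 and 0.25 for KRT18.

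**Figure D4:**
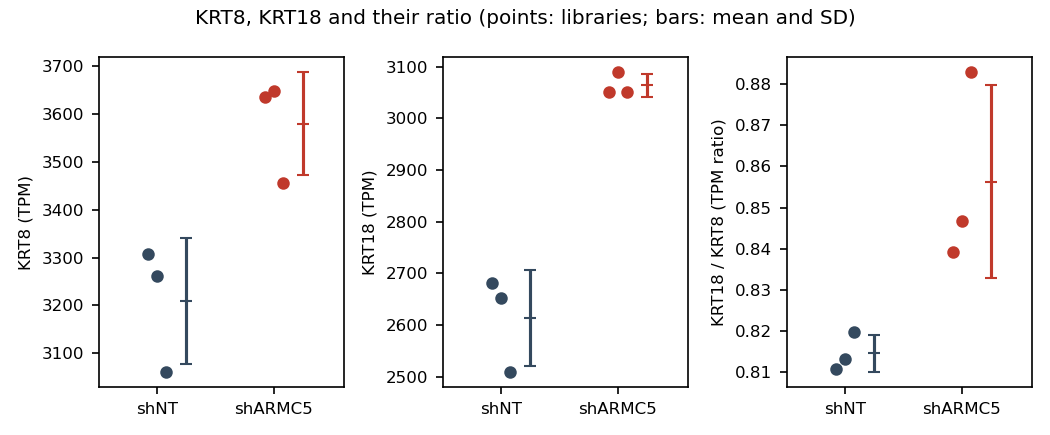
KRT8 and KRT18 levels in TPM and their ratio in each library (points), with the mean and SD of each group beside them, on axes that do not start at 0. All 3 shARMC5 libraries lie above all 3 shNT libraries in each panel, and the highest ratio is 0.883 in shARMC5 replicate 3.

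Among the desmosome genes, PKP2 and PPL rose and DSC2 fell, while DSG2, JUP, PKP3, PKP4 and EVPL had intervals that included 0. PKP2, a plakophilin of the plaque of simple epithelia and heart, had 162, 168 and 158 CPM in shARMC5 and 149, 150 and 144 CPM in shNT replicates 1, 2 and 3 (log2 fold change 0.14, SE 0.03, adjusted P = 0.0189). The groups were separate in CPM but not in TPM, and the call was lost without shARMC5 replicate 2 (adjusted P = 0.112). PPL, which encodes periplakin, a plakin linking filaments to the membrane, had 222, 216 and 206 CPM against 200, 194 and 192 CPM (log2 fold change 0.13, SE 0.03, adjusted P = 0.0217). Its relative EVPL, envoplakin, was between 80.2 and 85.1 CPM in all 6 libraries (log2 fold change 0.03, adjusted P = 0.700).

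The desmosomal cadherins did not move alike. DSC2, desmocollin 2, had 10.8, 12.4 and 9.60 CPM in shARMC5 and 15.2, 13.2 and 14.8 CPM in shNT replicates 1, 2 and 3. The shNT levels were all higher, and the log2 fold change was -0.39 (SE 0.10, adjusted P = 0.0277) from 242 to 496 reads per library. Without shNT replicate 1 the adjusted P value of DSC2 was 0.137, and without shARMC5 replicate 3 it was 0.104. DSG2, desmoglein 2, was much more abundant, with 357, 372 and 345 CPM against 367, 362 and 365 CPM, and the groups overlapped (log2 fold change -0.03, 95% interval -0.09 to 0.03, adjusted P = 0.692).

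DSP, desmoplakin, which ties keratin filaments to the plaque, had 340, 327 and 300 CPM in shARMC5 and 427, 354 and 367 CPM in shNT replicates 1, 2 and 3. The groups did not overlap, but shNT replicate 1 stood above the other two, and DSP was not called (log2 fold change -0.25, 95% interval -0.50 to 0.01, adjusted P = 0.293). Without that library the log2 fold change of DSP was -0.16, and DESeq2 with an offset for average transcript length called it (adjusted P = 0.0150). JUP, plakoglobin, was at 369, 349 and 363 CPM against 360, 359 and 352 CPM (log2 fold change 0.01, 95% interval -0.04 to 0.07). For PKP3 the log2 fold change was 0.05 (adjusted P = 0.371) and for PKP4 0.00 (adjusted P = 0.995). PKP1, with 13 to 26 reads per library, had -0.59 with an interval from -1.41 to 0.23, which leaves its direction undetermined at this depth.

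At the adherens junction the 3 main catenin genes were called and E-cadherin was not. CTNNA1, alpha-catenin, the link to actin, had 306, 308 and 306 CPM in shARMC5 and 284, 292 and 286 CPM in shNT replicates 1, 2 and 3 (log2 fold change 0.09, SE 0.03, adjusted P = 0.0433). CTNNB1, beta-catenin, which is both a junction protein and the transcriptional effector of WNT signalling, had 444, 450 and 440 CPM against 417, 425 and 416 CPM (log2 fold change 0.08, SE 0.02, adjusted P = 0.0584). CTNND1, p120-catenin, which stabilizes cadherins at the membrane, went the other way, with 328, 321 and 312 CPM against 350, 345 and 343 CPM (log2 fold change -0.11, SE 0.03, adjusted P = 0.0229). In all 3 catenin genes the groups were separate in CPM, and in TPM only those of CTNND1 were. CDH1 was at 471, 457 and 435 CPM against 460, 449 and 453 CPM, with a 95% interval of the log2 fold change from -0.06 to 0.06. EPCAM was at 942, 982 and 957 CPM against 925, 966 and 932 CPM (log2 fold change 0.03, 95% interval -0.03 to 0.09).

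The catenin calls depended on single libraries. CTNNA1 missed the threshold without shNT replicate 1 (adjusted P = 0.148), shARMC5 replicate 2 (0.142), shARMC5 replicate 3 (0.1002) or shNT replicate 3 (0.146). CTNNB1 missed it without shARMC5 replicate 1 (0.102), shNT replicate 1 (0.158), shARMC5 replicate 2 (0.204) or shNT replicate 3 (0.187), and CTNND1 without shNT replicate 1 (0.101). With all libraries and the replicate number as a further term in edgeR, the adjusted P values were 0.0100 for CTNNA1, 0.0104 for CTNNB1 and 0.00265 for CTNND1. The average length of CTNNB1 transcripts, weighted by their levels, was 2988 bases in shARMC5 and 2871 bases in shNT cells, and with an offset for this length in edgeR the log2 fold change of CTNNB1 was 0.03 (adjusted P = 0.855). With the same offset CTNNA1 had 0.14 (adjusted P = 0.271) and CTNND1 -0.11 (adjusted P = 0.244), so that their calls were lost without a smaller fold for CTNNA1 and with nearly the same fold for CTNND1. In TPM, which takes that length into account, CTNNB1 had 223, 199 and 203 against 223, 199 and 200, and the groups overlapped.

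The tight junction genes had the fewest calls of the 4 groups relative to their number, with CLDN1 higher and TJP3 lower. CLDN1, a claudin that tightens the barrier, had 10.8, 11 and 11.5 CPM in shARMC5 and 9.21, 9.01 and 9.10 CPM in shNT replicates 1, 2 and 3, from 255 to 434 reads. The groups were separate (log2 fold change 0.29, SE 0.09, adjusted P = 0.0733), but the call was lost without any 1 of the 6 libraries, with adjusted P values from 0.122 without shARMC5 replicate 1 to 0.210 without shARMC5 replicate 3. Without shNT replicates 1, 2 or 3 the adjusted P value of CLDN1 was 0.169, 0.132 or 0.156, and without shARMC5 replicate 2 it was 0.180. CLDN3, CLDN4 and CLDN7 were flat or close to it, each with a log2 fold change of -0.04. Their 95% intervals ran from -0.21 to 0.13, -0.10 to 0.03 and -0.10 to 0.02. CLDN12 had 34.6, 35.1 and 34.9 CPM against 37.8, 39.2 and 37.6 CPM, separate groups without a call (log2 fold change -0.13, adjusted P = 0.162), and it shares bases with GTPBP10 on the same strand.

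TJP3, which encodes the scaffold protein ZO-3, had 24.3, 24.7 and 26.8 CPM in shARMC5 and 30.9, 29.4 and 28.1 CPM in shNT replicates 1, 2 and 3 (log2 fold change -0.22, SE 0.06, adjusted P = 0.0501). The groups were separate. The call was lost without shARMC5 replicate 1 (adjusted P = 0.159), shNT replicate 1 (0.208) or shARMC5 replicate 2 (0.162), and APBA3 overlaps TJP3 on the opposite strand with a mean of 733 reads beside 856. With the offset for transcript length the log2 fold change of TJP3 was -0.36 in both tools, with an adjusted P of 0.1001 in edgeR and 0.0102 in DESeq2. TJP1, the gene of ZO-1, had 87.6, 101 and 99.1 CPM against 91.2, 83.8 and 87.0 CPM, and the groups overlapped (log2 fold change 0.13, adjusted P = 0.229). Without shARMC5 replicate 1 the log2 fold change of TJP1 was 0.20 (adjusted P = 0.0159). OCLN, occludin, had 0.08 (adjusted P = 0.516), MARVELD2, tricellulin, -0.08 (0.638), MARVELD3 -0.03 (0.803), F11R, the junctional adhesion molecule A, -0.01 (0.884), and CGN, cingulin, 0.12 (0.253).

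**Figure D5:**
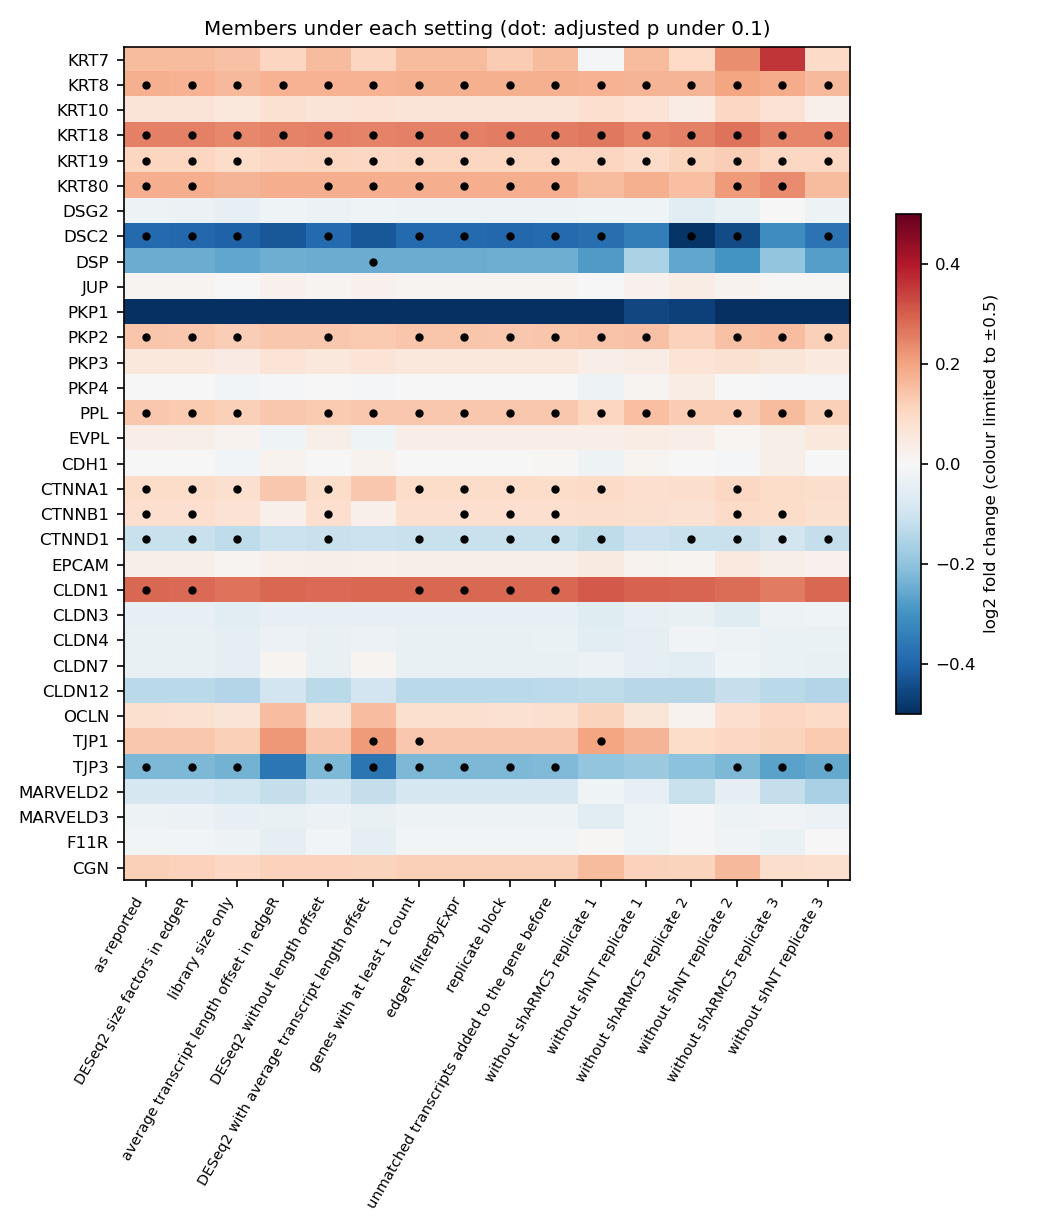
Log2 fold change of each of the 33 genes (rows) under the reported test and 15 alternatives (columns), in colour limited to 0.5 either way, with a dot where the adjusted P value was under 0.1. KRT8 and KRT18 have a dot in every column, and CLDN1 in 6 of 16.

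The calls were counted over 15 alternatives to the reported test, other scalings, filters, tools and sets of libraries. KRT8 and KRT18 were called in 15 of 15, KRT19 and PPL in 14, PKP2 and CTNND1 in 12, and DSC2 and TJP3 in 11. KRT80 and CTNNA1 were called in 9, CTNNB1 in 7 and CLDN1 in 5. TJP1, not called as reported, was called in 3 and DSP in 1. Over the 15 alternatives the log2 fold change of KRT18 stayed between 0.24 and 0.27 and that of KRT8 between 0.16 and 0.20, while DSC2 ranged from -0.49 to -0.31.

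Levels were also summed over each structure, in TPM, and the sum separated the groups for the keratins alone, a sum made up mostly of KRT8 and KRT18. KRT7, KRT10 and KRT80 overlapped between the groups in TPM. The 6 keratins summed to 7605, 7657 and 7405 TPM in shARMC5 and 6867, 6786 and 6392 TPM in shNT replicates 1, 2 and 3. The 10 desmosome genes summed to 719, 676 and 665 against 725, 686 and 653 TPM, the 5 adherens junction genes with EPCAM to 1656, 1646 and 1565 against 1646, 1639 and 1546 TPM, and the 12 tight junction genes to 648, 651 and 635 against 664, 663 and 634 TPM. The sums of the latter 3 groups overlapped between shARMC5 and shNT.

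Transcripts were then tested one by one. Of 51892 transcripts that passed the filter, 4 were called (0.00771%), and none of the 149 transcripts of the 33 genes was. At an unadjusted P under 0.05 from edgeR, 13 of the 149 passed (8.72%), 8 higher and 5 lower, against 2493 or 4.80% of all transcripts. The lowest adjusted P value was that of KRT18-201, which held 99.1% of the TPM of KRT18 in shARMC5 cells (log2 fold change 0.25, adjusted P = 0.168). KRT8-201, at 83.9 and 84.6% of KRT8 in shARMC5 and shNT cells, had 0.17 (adjusted P = 0.551). For DSC2, the share of the gene's TPM in DSC2-201 was 64.3, 44.01 and 83.4% in shARMC5 and 44.95, 63.1 and 41.4% in shNT replicates 1, 2 and 3, so that the division between its transcripts varied more within a group than between the groups.

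Promoters, the 250 bases before and 50 after an annotated start, were read from RefSeq (GRCh38.p14), which gave 33 entries for 21 of the 35 genes. They were searched on both strands for TGAGTCA (AP-1), GGAATG (TEAD), CACCTG (the E-box of SNAI and ZEB factors) and AACCGGTT (GRHL), and no matches of different motifs overlapped in the promoters shown. CACCTG was found in 11 of the 33 entries (33.3%), those of CLDN3, CLDN7, DSC2, DSG2, DSP, JUP, KRT20, OCLN, TJP1 and TJP3, against 20.6% of all 35116 promoters. TGAGTCA was found in CLDN4 alone (4.95% of all promoters), GGAATG in KRT8 alone (14.0%) and AACCGGTT in none (0.134%). Of the called genes with an entry, CACCTG was found in both that were lower, DSC2 and TJP3, and in none of the 4 that were higher, KRT8, CTNNA1, CTNNB1 and CLDN1. It was found in 7 of the 14 that were not called. The called genes KRT18, KRT19, KRT80, PKP2, PPL and CTNND1 had no entry, and DSC2 and TJP3 each had another entry without a match. Whether the motif goes with the direction of change was not tested, and these few entries could not show it. The 2 entries with a match among lower genes are set beside 2 of higher genes, all 4 at the start of the gene's most abundant transcript, with a match to CACCTG or its reverse complement in capitals.
DSC2, chr18:31102372-31102671, minus strand: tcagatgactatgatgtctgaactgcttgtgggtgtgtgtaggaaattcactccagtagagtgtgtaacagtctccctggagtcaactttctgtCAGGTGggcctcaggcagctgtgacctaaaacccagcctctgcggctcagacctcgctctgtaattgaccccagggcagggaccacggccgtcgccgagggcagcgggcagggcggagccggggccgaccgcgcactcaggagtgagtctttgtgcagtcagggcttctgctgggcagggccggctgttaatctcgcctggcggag
TJP3, chr19:3721487-3721786, plus strand: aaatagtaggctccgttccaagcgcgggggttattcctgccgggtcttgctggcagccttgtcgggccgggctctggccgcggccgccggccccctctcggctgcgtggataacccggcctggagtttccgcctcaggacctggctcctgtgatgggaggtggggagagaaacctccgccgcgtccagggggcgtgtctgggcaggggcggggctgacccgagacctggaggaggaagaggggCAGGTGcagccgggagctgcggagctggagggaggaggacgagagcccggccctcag
CLDN1, chr3:190322397-190322696, minus strand: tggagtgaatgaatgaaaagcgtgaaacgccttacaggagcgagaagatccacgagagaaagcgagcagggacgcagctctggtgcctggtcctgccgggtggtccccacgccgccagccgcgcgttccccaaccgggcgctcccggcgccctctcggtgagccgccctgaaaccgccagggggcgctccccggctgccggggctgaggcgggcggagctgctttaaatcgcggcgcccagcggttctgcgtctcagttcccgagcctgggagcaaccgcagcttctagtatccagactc
CTNNB1, chr3:41199255-41199554, plus strand: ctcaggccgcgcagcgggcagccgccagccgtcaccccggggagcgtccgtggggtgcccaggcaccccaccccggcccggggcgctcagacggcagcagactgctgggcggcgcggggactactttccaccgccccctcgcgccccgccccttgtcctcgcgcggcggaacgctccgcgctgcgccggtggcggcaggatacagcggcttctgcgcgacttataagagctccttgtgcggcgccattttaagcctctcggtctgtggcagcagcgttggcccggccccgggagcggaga

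In DSC2 the match lies 156 bases before the start and in TJP3 it lies 7 bases before it. These matches are descriptions of letters in a window, with 6 letters each, and neither binding nor promoter activity was measured in these libraries. The GGAATG of KRT8 lies 17 bases after a start that belongs to KRT8-215 and is 19851 bases upstream of the start of KRT8-201, the main transcript.

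Other genes of the same structures were taken from lists written by name, and their calls stand beside 4.44% higher and 3.30% lower over all tested genes. The lists are small, with 2 to 18 tested genes each. Among hemidesmosome genes, which anchor keratins to the basement membrane, none of 9 was called lower, 7 had a log2 fold change above 0, and those called higher included COL17A1 (log2 fold change 0.35, adjusted P = 0.0246), LAMB3 (0.23, 0.000691) and ITGA6 (0.10, 0.0464). COL17A1 is a transmembrane collagen of hemidesmosomes, LAMB3 is a laminin chain of the basement membrane, and ITGA6 is an integrin subunit that binds laminin. The median log2 fold change of the 9 was 0.08. Of 2 tested other desmosome genes PERP, a membrane protein of desmosomes, rose, from 3094 ± 20.7 to 3386 ± 89.0 CPM (SD, n = 3; log2 fold change 0.13, adjusted P = 0.00522). Of 6 further keratins that passed the filter none was called, and their levels were at most 1.22 CPM. Of 4 further claudins CLDN2, which forms a cation-selective pore, rose from 8.61 ± 0.348 to 13.5 ± 1.35 CPM (log2 fold change 0.64, adjusted P = 0.000587).

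Of 12 other cadherin and adherens junction genes, VCL, vinculin, rose (log2 fold change 0.14, adjusted P = 0.0204; the same pair of values follows each gene named next), and AFDN, afadin (-0.12, 0.0810), and the colon marker CDH17 fell. Of 18 other tight junction genes LSR, the tricellular receptor (0.13, 0.0129), and ILDR2 (0.52, 0.00159) rose, and MAGI3, a scaffold protein, fell (-0.17, 0.0542). Of 13 tested epithelial transcription and splicing factors none was called higher, 5 had a log2 fold change above 0, and the ETS factors EHF (-0.39, 9.3e-06) and ELF3 (-0.19, 0.0585) fell. EHF was at 85.9 ± 1.56 CPM in shARMC5 and 113 ± 5.39 CPM in shNT cells (SD, n = 3). Of 5 tested mesenchymal genes and EMT factors none was called, and of 8 keratin partners and modifiers LMNA, lamin A/C, rose (0.11, 0.0190) and TRADD, an adaptor of TNF receptor signalling, fell (-0.24, 0.0964). The median log2 fold change was 0.51 over the 6 further keratins, all at low counts, 0.09 over the 4 further claudins, -0.03 over the 2 other desmosome genes, 0.06 over the other cadherin and adherens junction genes as well as over the other tight junction genes, -0.03 over the epithelial factors, 0.08 over the mesenchymal genes and 0.02 over the keratin partners, beside -0.0014 over all tested genes.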

How the data were processed

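Poly(A) RNA-seq of SPT5-AID cells was compared between 3 shARMC5 and 3 shNT libraries, grouped by their labels. The authors used cutadapt 4.2 for quality trimming and Salmon 1.9.0, with correction for GC bias, for quantification. The deposited files hold, per transcript, an estimated count of reads without normalization and TPM scaled within the library. The transcript set is not given in the sources used here, and the processing notes name hg38. Of 177456 transcripts, 165533 matched GENCODE 44 by identifier without version, and the rest, with 2.96 to 3.04% of reads, was left out.

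Estimated counts were summed per gene and rounded, and those reaching 10 counts in 3 or more libraries entered edgeR 4.0.16 (quasi-likelihood F test, R 4.3.3, limma 3.58.1, robust fit, TMM factors 0.992 to 1.02, group as the only term). The study summarized its quantification with tximeta and tested with DESeq2, and does not state whether a length offset entered. Alternatives were DESeq2 1.42.0 without and with an offset for average transcript length, other scalings and filters, a replicate block, and leaving out each library. The DESeq2 alternatives were closest to the tools of the study. They called 879 genes without and 568 with the offset, and shared 11 and 6 of the 12 listed calls. The tests were tried on simulated data, where the share of false calls was above the threshold and many small changes were missed. The ratio of KRT18 to KRT8 was tested with an exact permutation test. P values measure the spread between the libraries of a group, which the study describes as biological replicates. The common coefficient of variation was 0.0643, and low read numbers limit precision. Named genes are ARMC5, all listed members, pseudogenes as sums, and called members of each further list, of which 1 is not reported here. VIL1, CDX2 and LGALS4 were added with their values known. The members and lists were chosen with earlier results of these data known. Tables and figures were made with Python 3.11.15, pandas 2.3.3 and matplotlib 3.10.9.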

Additional observations from a re-analysis of the deposited data

How the results depend on the processing

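None of the 12 listed genes called as reported, nor ARMC5, changed direction under an alternative. Leaving out 1 library in turn gave 536 to 1085 called genes (1064 as reported), 4 to 8 of the listed genes higher (9), 0 to 3 lower (3) and a median log2 fold change of 0.0072 to 0.0345, the lowest without shARMC5 replicate 1. Without shNT replicate 1, 536 genes and no listed gene lower were called, and without shARMC5 replicate 2, 600 genes and 4 listed genes higher. Fewer libraries entered these fits. With an offset for average transcript length edgeR called 234 genes, 2 listed genes higher and 0 lower, and DESeq2 with it called 568 genes; the cause was not tested. At an adjusted P under 0.05, 676 genes were called. With library size only, 458 genes were higher and 495 lower in place of 610 and 454, the median over all genes moved to -0.0155, and 6 listed genes were higher, without KRT80 (adjusted P = 0.134), CTNNB1 (0.131) and CLDN1 (0.1003). The labels do not say whether same-numbered libraries form pairs. Same-numbered libraries had correlations of -0.014, -0.006 and -0.022 between their deviations from the group means. This does not decide whether they are paired, since a correlation over many genes can miss pairing that affects some of them. With a replicate block 1766 genes were called in place of 1064, and the 12 listed genes called as reported were the ones called there too.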

Other observations

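Within JUP, CLDN7, DSP and PKP4, genes that were not called, single transcripts passed an unadjusted P under 0.05 from edgeR, and none of them passed adjustment over all transcripts. JUP-201, which held 49.9% of the TPM of JUP in shARMC5 and 53.3% in shNT cells, had a log2 fold change of -0.08 (unadjusted P = 0.0298, adjusted P = 0.923), and JUP-203, at 36.1 and 33.3%, had 0.13 (0.0243, adjusted P = 0.877). CLDN7-201, at 69.5 and 75.3% of CLDN7, had -0.10 (0.0112, adjusted P = 0.674). DSP-201 had -0.28 (0.0328, adjusted P = 0.944), and PKP4-216, a minor transcript of PKP4, had -1.59 (0.0299, adjusted P = 0.923). In CTNND1, which was itself called lower, CTNND1-201 was a minor transcript at 0.0314% of CTNND1 in shARMC5 and 1.33% in shNT cells (unadjusted P = 0.0131, adjusted P = 0.718). Salmon divided the reads that such transcripts share, and these genes were picked after their values were seen.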
